A study of Mus musculus with 12 samples.

Results

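Skin 4 days after a first tick infestation was compared with unbitten skin in mice. The members were chosen by the immunization label of each library: 3 libraries labelled as a 1st exposure and 2 labelled naïve, 5 of the 12 libraries in the series. All 12 are RNA sequencing libraries of mouse skin biopsies. The first exposure group was bitten by ticks and carries no earlier infestation in its labels, while the naive group is labelled as not bitten, although its description field also carries the 4-day wording. The labels name no strain, age, body site or tick species. Nor do they tie a library to an animal, so the p-values rest on a spread between libraries, which may be technical. Xist, the RNA that silences an X chromosome in females, was at 813 and 938 CPM in naive skin and 1758, 1701 and 1285 CPM after first exposure, and Eif2s3y, a Y-linked gene, at 0 and 0.08 against 0.28, 0.334 and 0.216 CPM. Xist was thus abundant and the Y-linked gene close to 0 in all 5 libraries.

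A tick stays attached for days and feeds from a pool of blood and fluid in the dermis. Its saliva holds molecules that block clotting, itch and the recruitment of leukocytes. The skin around it holds epidermis, hair follicles, sebaceous glands, dermal fibroblasts, vessels, a thin muscle sheet and a layer of fat, and the level of a gene in a biopsy depends on how much of each was taken. In bulk tissue, fewer cells of a type and less RNA per cell cannot be told apart.

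Expression was given as CPM, counts per unit of library size, so that libraries of different depth share a scale. Estimated depth lay between 12.5 and 29.8 megareads in the 5 libraries, and 3 reads corresponded to between 0.101 and 0.24 CPM. The sample titles put all first exposure libraries in 1 numbered series, with the single saliva immune library of the study, and both naive libraries in another, with the 6 libraries of mice labelled ticks 2x and ticks 3x. No first exposure library thus shares a series with a naive one, and in the comparison of these groups the bite and the title series cannot be told apart. The ticks 2x and 3x libraries are bitten skin within the naive series, from mice with other infestation labels, and their values are given beside some results. They also enter the fit behind the p-values, which thus draw on their spread as well as on that of the 5 libraries. The saliva immune library (n = 1, bitten skin) is quoted as a value only. The biopsies also differed in hair. The mean level of 25 hair shaft and inner root sheath genes, on the log2(CPM + 1) scale, was 7.45 and 0.93 in naive replicates 1 and 2 and 9.03, 9.35 and 1.59 in first exposure replicates 1, 2 and 3. Naive replicate 1 and first exposure replicates 1 and 2 were thus rich in hair shaft transcripts, and naive replicate 2 and first exposure replicate 3 were poor in them. Krt71, an inner root sheath keratin, was at 1815 and 0.32 CPM in naive skin and 5848, 6698 and 14.5 CPM after first exposure. Other defining skin genes were present in every library: Krt5, a keratin of the basal epidermis, was at 2068 and 3356 against 2233, 1659.5 and 4682 CPM and Col1a2, a collagen of dermal fibroblasts, at 2601 and 2552 against 1747, 1097 and 3324 CPM.

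Few genes passed the test. Of 16374 genes, limma called 1 higher (0.00611%) and 1 lower (0.00611%) after first exposure at an adjusted p below 0.05, while 2792 had an unadjusted p below 0.05. The 2 called genes were Oxtr, which fell, and Rps12, which rose. A looser threshold, an adjusted p below 0.1, was added after the values were seen and gave 128 genes higher (0.782%) and 153 lower (0.934%). As a description without a test, 3478 genes (21.2%) had every first exposure library above both naive libraries and 2303 (14.1%) had every one below. Counted by sign alone, 9511 (58.1%) had a log2 fold change above 0 and 6863 (41.9%) below 0. The split without overlap depended on scaling: 60.2% of the genes without overlap were higher on the deposited scale and 50.2% after median-of-ratios scaling. The median log2 fold change of all genes tested was 0.09, and the counts of list members below are to be read against these shares. Without first exposure replicate 3, limma called 355 genes higher and 346 lower, and without first exposure replicate 1 or 2 at most 1.

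**Figure D1:**
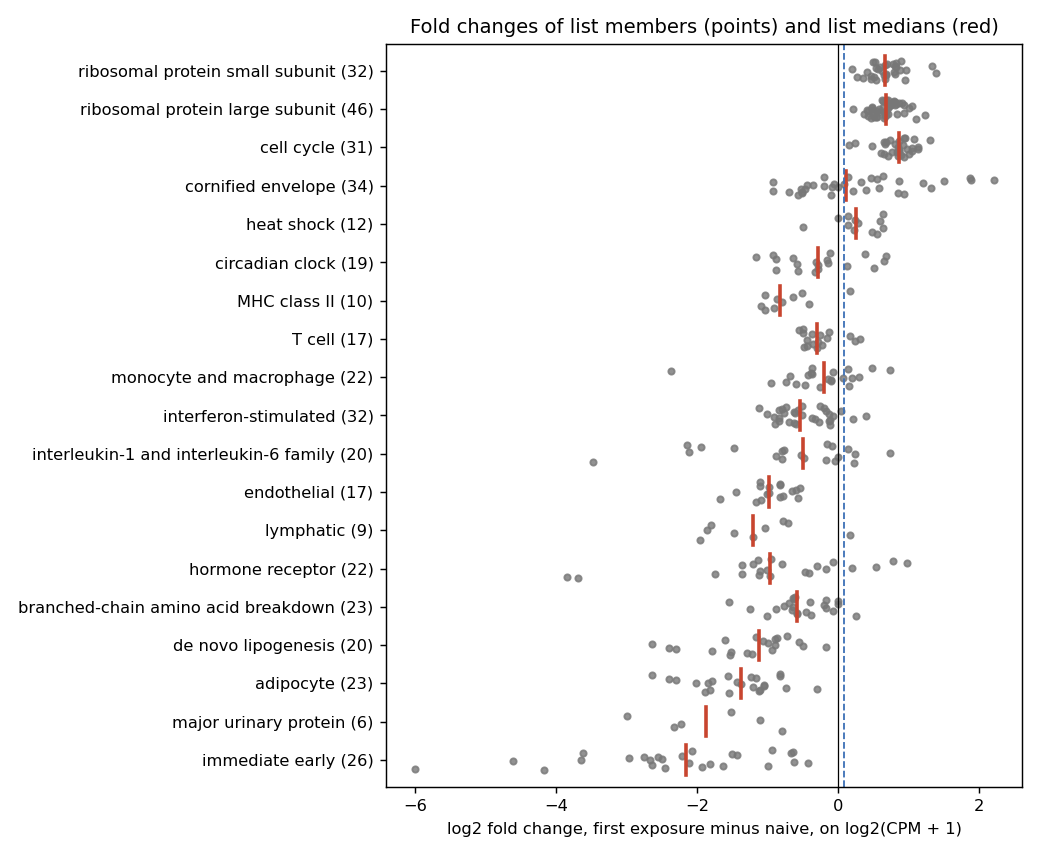
Log2 fold change (first exposure minus naive, on log2(CPM + 1)) of every tested member of 19 gene lists, 1 grey point per gene, with the list median as a red bar, the number of tested members in brackets, and the median of all genes as a dashed line. The immediate early, adipocyte, lipogenesis and endothelial members all lie below 0, and the ribosomal protein and cell cycle members all lie above it.

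Receptors for oxytocin, progesterone and relaxin were among the genes with the lowest fold changes. Oxtr, the oxytocin receptor (chromosome 6, 112473683 to 112491035), was at 81.4 and 99.9 CPM in naive skin and 6.26, 5.46 and 6.51 CPM after first exposure. The groups did not overlap, and the means were 90.7 ± 13.1 CPM in naive skin (SD, n = 2) and 6.08 ± 0.549 CPM after first exposure (SD, n = 3) (log2 fold change -3.69, SE 0.32, adjusted p = 0.0143). In the ticks 2x libraries it was at 7.77, 4.86 and 8.81 CPM, in ticks 3x at 19.8, 16.6 and 9.01 CPM and in the saliva immune library at 16.2 CPM, so both naive libraries lay above all 10 bitten ones. These other bitten groups are set against the same 2 naive libraries and do not add control samples. Dropping naive replicate 1 moved the adjusted p of Oxtr to 0.0882 and dropping naive replicate 2 moved it to 0.242. Fits that dropped first exposure replicate 1 or 2 gave 0.0582 and 0.0556, so each of these 4 libraries was needed for the call.

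Of 22 tested genes for hormone receptors and their ligands, a list written with the Oxtr result known, 18 lay lower after first exposure (41.9% of all genes tested did), 11 of them without overlap, and the median log2 fold change was -0.96. Pgr, the progesterone receptor, was at 42.4 and 25.1 CPM in naive skin and 1.15, 0.947 and 2.07 CPM after first exposure (log2 fold change -3.84, SE 0.56, adjusted p = 0.0541). All 3 first exposure libraries were low for it, and it missed the threshold. Prlr, the prolactin receptor, was at 104 and 58.2 CPM in naive skin and 27.4, 19.4 and 21.9 CPM after first exposure (adjusted p = 0.0706), and Ghr, the growth hormone receptor, at 339 and 388 CPM in naive skin and 172, 107 and 150.5 CPM after first exposure (adjusted p = 0.0706). Both sets of libraries were separate, although Ghr reached 238, 287 and 397 CPM in the ticks 3x libraries, the last of which exceeded both naive values. Outside the list, Rxfp1, the receptor for relaxin, was at 26.8 and 42.2 CPM in naive skin and 1.08, 1.62 and 5.48 CPM after first exposure (adjusted p = 0.0773). Areg, an epidermal growth factor receptor ligand that oestrogen induces in the mammary gland, was at 32.1 and 33.6 CPM in naive skin and 8.49, 11.1 and 12.9 CPM after first exposure (adjusted p = 0.133). Nr3c1, the glucocorticoid receptor, was at 30.7 and 39.9 CPM in naive skin and 15.5, 12.3 and 20.4 CPM after first exposure (adjusted p = 0.0773). It was picked after its values were seen, and its groups did not overlap. None of these receptors other than Oxtr was called.

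Genes of secreted proteins under hormonal control were also low. Major urinary proteins are pheromone carriers made mainly in the liver, and their genes form a family of near-identical copies whose reads may be split between members. All 6 tested members lay lower without overlap (median log2 fold change -1.87). Mup10 was at 939 and 1201 CPM in naive skin and 139, 149 and 114 CPM after first exposure (adjusted p = 0.0972) and Mup3 at 7.65 and 9.27 CPM in naive skin and 1.08, 1.11 and 0.863 CPM after first exposure (adjusted p = 0.0656). The saliva immune library had 298 CPM of Mup10, and the ticks 2x and 3x libraries 51.2, 240.0 and 293 and 137, 188 and 388 CPM. Milk protein genes separated the naive libraries from each other: Csn2, which encodes beta-casein, was at 46.3 and 2.32 CPM in naive skin and 0.385, 0 and 0 CPM after first exposure, and Csn1s1, an alpha-casein gene, at 43.5 and 1.68 CPM in naive skin and 0.979, 0 and 0 CPM after first exposure. Naive replicate 1 alone was high for both. Ltf, which encodes lactoferrin of milk and of neutrophil granules, had 28.1 and 2.24 against 0.979, 0 and 0 CPM on the naive and first exposure sides. The 10 tested mammary genes averaged 5.21 and 2.25 in naive skin and 2.61, 2.31 and 1.04 after first exposure on the log2(CPM + 1) scale. Their median of -1.64 became 0.06 without naive replicate 1. Between naive replicates 1 and 2, Oxtr was higher in replicate 2 (81.4 and 99.9 CPM) and Pgr was higher in replicate 1 (42.4 and 25.1 CPM). How far mammary tissue in the biopsies moves with Oxtr and Pgr was not tested.

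**Figure D2:**
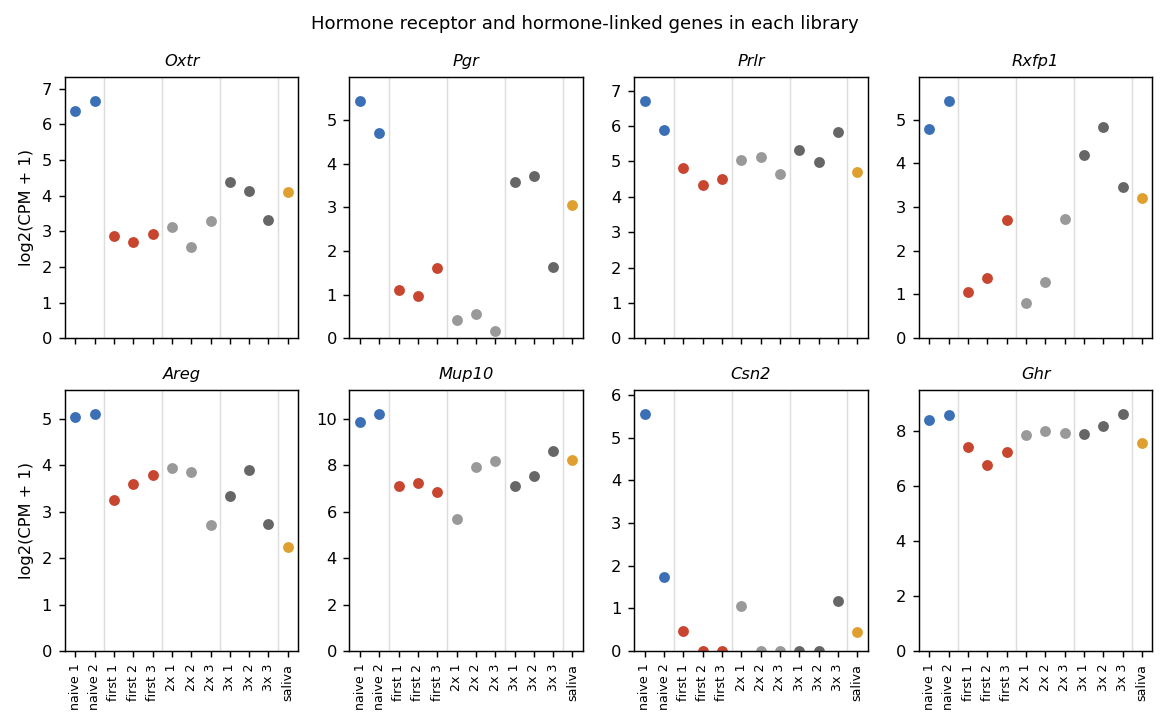
Level in log2(CPM + 1) of 8 hormone-linked genes in each of the 12 libraries: naive in blue, first exposure in red, ticks 2x and 3x in greys and saliva immune in yellow. The naive libraries lie above all first exposure libraries for each gene, while Csn2 is high in naive replicate 1 only.

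Fat cell genes, among them the enzymes that build fatty acids from sugar, were low after first exposure. Fat cells turn citrate into acetyl-CoA, extend it to fatty acids and store these as triglyceride, and insulin raises the expression of that pathway. All 23 tested adipocyte genes lay lower, 22 without overlap, with a median log2 fold change of -1.37. Their mean level was 7.91 and 8.31 in the naive libraries and 7.02, 6.28 and 6.72 after first exposure, so that libraries with and without hair lay on the same side. Of these genes, 6 had an adjusted p below 0.1 and none passed at 0.05. Cfd, the adipocyte protease adipsin, was at 1021 and 1267 CPM in naive skin and 427, 201 and 256 CPM after first exposure (adjusted p = 0.0706). Adipoq, the hormone adiponectin of fat cells, was at 293 and 362 CPM in naive skin and 149, 72.3 and 126 CPM after first exposure (adjusted p = 0.0921), and Pparg, the master regulator of fat cell identity, at 6.62 and 9.51 CPM in naive skin and 3.57, 2.51 and 2.67 CPM after first exposure (adjusted p = 0.0873). Both were chosen after their values were seen, and both were separate between the groups.

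The enzymes were followed in order with pathway lists that were added after the values were seen. All 20 genes of de novo lipogenesis lay lower, 19 without overlap (median -1.11). This list shares members with the adipocyte list, Fasn, Scd1 and Thrsp among them, so the counts of the lists are not separate. Acly, which makes cytosolic acetyl-CoA from citrate, was at 661 and 851 CPM in naive skin and 259, 213 and 314 CPM after first exposure (log2 fold change -1.53, SE 0.22, adjusted p = 0.0541). Acaca, the carboxylase that commits acetyl-CoA to fatty acids, was at 549 and 765 CPM in naive skin and 220.4, 164 and 183 CPM after first exposure (adjusted p = 0.0873). For both enzymes the lowest naive library was well above the highest first exposure library on the CPM scale. Fasn, fatty acid synthase, was at 2522 and 3955 CPM in naive skin and 845, 458 and 681 CPM after first exposure. Scd1, which puts a double bond into the product, was at 6656 and 10158 CPM in naive skin and 1993, 889 and 2171 CPM after first exposure, and Thrsp, a lipogenic regulator, at 284 and 383 CPM in naive skin and 64.1, 34.2 and 65.7 CPM after first exposure. First exposure replicate 2 was the lowest of the 5 libraries for each of these 5 genes.

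Neighbouring pathways were described in the same way. Of 23 genes for the breakdown of branched-chain amino acids, another source of carbon for fat cells, 20 lay lower and 18 did so without overlap (median -0.58). Aldh6a1, which ends the valine branch, was at 176 and 226 CPM in naive skin and 72.2, 53.8 and 80.4 CPM after first exposure (adjusted p = 0.0593), and Bcat2, the mitochondrial aminotransferase that starts the pathway, at 69.6 and 85.3 CPM in naive skin and 41.8, 29.8 and 43.3 CPM after first exposure (adjusted p = 0.119). In cholesterol synthesis 11 of 22 lay lower (41.9% of all genes tested did), 2 of them without overlap (14.1% of all genes tested). In fatty acid oxidation 18 of 23 lay lower, 8 of them without overlap. Ehhadh, a peroxisomal enzyme of fatty acid oxidation, stood out among them at 17.4 and 24 CPM in naive skin and 7.52, 6.35 and 7.76 CPM after first exposure (adjusted p = 0.0516). No test of the difference between these pathways was made. The ticks 2x and 3x libraries were at 1126, 508 and 1591 and 696, 429.7 and 1197 CPM for Fasn, below both naive libraries of the same title series. The saliva immune library was at 1207 CPM. Their lipogenesis list means also lay below both naive libraries. The adipocyte list mean was 7.45, 7.04 and 7.83 in ticks 2x and 7.34, 7.43 and 8.19 in ticks 3x. The last of these lay between the naive libraries (7.91 and 8.31). For branched-chain breakdown the mean was 5.76 in ticks 3x replicate 3 and in both naive libraries.

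Immediate early genes encode transcription factors and feedback regulators that are switched on within minutes of growth factors, stress or handling. All 26 tested members lay lower after first exposure, 24 of them without overlap, with a median log2 fold change of -2.16 and none called. Such promoters are known to carry a CArG box, bound by serum response factor, or a CRE, bound by CREB. Promoter windows from RefSeq (GRCm38.p6, the 250 bases before each annotated start) were found for 19 of the 26 members. A CRE with the letters TGACGTCA, which reads the same on both strands, stood in 3 of them, Dusp1, Btg2 and Maff, against 1.77% of all 27025 genes with a window. A CArG box, searched as a pattern that fits both strands alike although a single match need not, stood in 2, Egr2 and Zfp36, against 1.62% of those genes. No member held both motifs. The sequences of 3 members with a single annotated start are shown from 5′ to 3′, since their genes are among those far apart between the groups, with the CArG box or CRE in capitals. They lie at chr7:28379229-28379478, minus strand, at chr17:26508473-26508722, minus strand and at chr1:134079156-134079405, minus strand. A match is a description of the letters and not a site.
Zfp36: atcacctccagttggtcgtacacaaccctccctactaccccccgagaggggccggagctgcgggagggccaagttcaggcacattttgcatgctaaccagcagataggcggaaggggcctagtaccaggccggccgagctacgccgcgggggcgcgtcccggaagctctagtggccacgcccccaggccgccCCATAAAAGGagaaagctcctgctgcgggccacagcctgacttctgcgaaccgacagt
Dusp1: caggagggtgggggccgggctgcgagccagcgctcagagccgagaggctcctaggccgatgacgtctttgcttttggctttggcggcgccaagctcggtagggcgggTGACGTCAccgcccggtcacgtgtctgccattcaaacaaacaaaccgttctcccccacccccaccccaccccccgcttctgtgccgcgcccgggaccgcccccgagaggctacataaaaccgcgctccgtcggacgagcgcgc
Btg2: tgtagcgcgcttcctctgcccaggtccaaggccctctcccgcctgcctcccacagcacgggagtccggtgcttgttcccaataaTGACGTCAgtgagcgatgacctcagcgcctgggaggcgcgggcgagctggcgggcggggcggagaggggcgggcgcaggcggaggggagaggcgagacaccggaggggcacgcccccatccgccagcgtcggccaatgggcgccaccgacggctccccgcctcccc

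Levels of these genes were high in naive skin and uneven after first exposure. Zfp36, which shortens cytokine mRNAs and has the CArG box above, was at 683 and 1427 CPM in naive skin and 97.3, 75 and 426 CPM after first exposure (adjusted p = 0.119). Dusp1, a phosphatase that ends MAP kinase signals, was at 744 and 1425 CPM in naive skin and 76.3, 49.4 and 592 CPM after first exposure (adjusted p = 0.153), and Btg2, which restrains proliferation, at 488 and 1096 CPM in naive skin and 82.5, 72.8 and 317 CPM after first exposure (adjusted p = 0.116). In all 3 genes first exposure replicate 3 lay well above replicates 1 and 2, yet below both naive libraries. Fosb, a partner of Jun proteins, spanned the widest range, at 879 and 2933 CPM in naive skin and 13.9, 2.28 and 324 CPM after first exposure (SE 1.53 on the log2 scale, adjusted p = 0.119). Fos, its relative, was at 1518 and 3383 CPM in naive skin and 76, 23.4 and 1055 CPM after first exposure. Atf3, a stress-induced repressor, was at 408 and 1216 CPM in naive skin and 10.3, 6.74 and 272 CPM after first exposure, and Nr4a1, an orphan nuclear receptor, at 569 and 1391 CPM in naive skin and 27.2, 25.9 and 475 CPM after first exposure. Egr2, a zinc finger factor, and Cyr61, a matrix protein induced by serum, were the 2 members with an adjusted p below 0.1. Egr2 was at 185 and 229.7 CPM in naive skin and 52.3, 42.6 and 85.9 CPM after first exposure (adjusted p = 0.0724) and Cyr61 at 515 and 853 CPM in naive skin and 32.1, 31.4 and 149 CPM after first exposure (adjusted p = 0.0724).

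The list mean was 7.66 and 8.70 in the naive libraries and 5.44, 5.13 and 7.10 after first exposure. Among libraries with hair, naive replicate 1 lay above first exposure replicates 1 and 2, and among those with little hair naive replicate 2 lay above first exposure replicate 3. The other libraries of the naive title series, bitten skin, ranged over 7.27 to 7.92 in ticks 2x and 7.07 to 7.71 in ticks 3x, and saliva immune skin, of the other series, had 5.88. First exposure replicate 3 lay close to the lowest of those libraries, while replicates 1 and 2 lay below them all. Heat shock genes, which also answer handling stress, had 4 of 12 members higher and 0 lower without overlap (median 0.26). Hspa1a, the stress-induced Hsp70, was at 55.8 and 119.5 CPM in naive skin and 119, 103 and 142 CPM after first exposure and overlapped between the groups. In the clock list 2 of 19 lay higher and 5 lower without overlap. Both lists compare with 21.2% of all genes tested higher and 14.1% lower without overlap. Per1, which is both a clock and an immediate early gene, was at 112 and 219 CPM in naive skin and 111, 108 and 180.3 CPM after first exposure, Dbp, a clock output factor, at 5.63 and 5.3 against 4.77, 8.15 and 19.3 CPM, and Arntl, the core activator, at 10.4 and 11.1 against 7.72, 7.58 and 10.1 CPM. Per1 and Dbp overlapped between the groups, whereas Arntl lay lower in all first exposure libraries (adjusted p = 0.484).

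**Figure D3:**
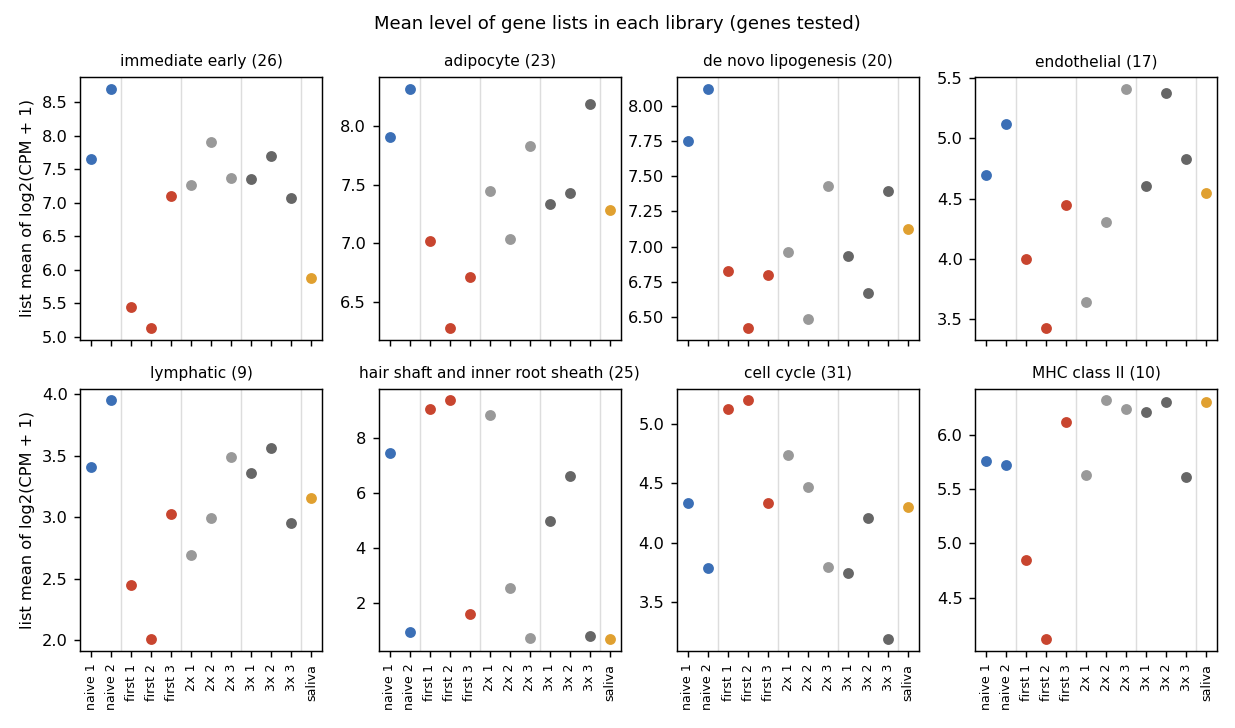
Mean log2(CPM + 1) of the tested members of 8 gene lists in each of the 12 libraries, with the number of members in brackets: naive in blue, first exposure in red, ticks 2x and 3x in greys and saliva immune in yellow. Both naive libraries lie above the 3 first exposure libraries for the immediate early, fat, lipogenesis, endothelial and lymphatic lists, whereas hair genes vary within each group.

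Vessel genes lay lower after first exposure and none was called. All 17 tested endothelial genes lay lower, 16 without overlap (median -0.97). Kdr, the main receptor for vascular endothelial growth factor, was at 45.8 and 63 CPM in naive skin and 18.8, 10.2 and 22.1 CPM after first exposure (adjusted p = 0.135), and Pecam1, a junction protein of endothelium, at 85.6 and 110.2 CPM in naive skin and 43.3, 27.1 and 67.1 CPM after first exposure (adjusted p = 0.364). First exposure replicate 2 was lowest and replicate 3 highest of the bitten side in both. Apold1, an endothelial gene with immediate early kinetics, was at 54.1 and 120.3 CPM in naive skin and 5.77, 8.08 and 5.13 CPM after first exposure (adjusted p = 0.0541). On lymphatic vessels, 7 of 9 genes lay lower without overlap (median -1.21, and -0.68 without naive replicate 2). Lyve1, the hyaluronan receptor of lymphatic endothelium and of some macrophages, was at 113 and 49.8 CPM in naive skin and 17.2, 19.6 and 19.2 CPM after first exposure (adjusted p = 0.076), and Ccl21a, which guides dendritic cells into lymph vessels, at 9.96 and 25.6 CPM in naive skin and 3.05, 2.51 and 6.31 CPM after first exposure (adjusted p = 0.136). The saliva immune library, at 95.5 CPM of Lyve1, lay between the 2 naive values.

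Genes listed for leukocyte adhesion on vessels were low as well. Of 6 tested, 5 lay lower without overlap (median -0.98, and -0.63 without first exposure replicate 2). Sele, the E-selectin of inflamed vessels, was at 17.1 and 48.4 CPM in naive skin and 2.94, 1.23 and 6.08 CPM after first exposure (adjusted p = 0.132), and Icam1, the ligand of leukocyte integrins, at 30.1 and 41.1 CPM in naive skin and 16.8, 12.5 and 21.9 CPM after first exposure (adjusted p = 0.271). Thbd, the thrombin-binding anticoagulant of endothelium, was at 149.7 and 163 CPM in naive skin and 49.2, 35 and 89.5 CPM after first exposure (adjusted p = 0.119). Thbs1, a matrix and platelet protein, was at 568 and 1276 CPM in naive skin and 168, 119 and 567 CPM after first exposure, with first exposure replicate 3 almost level with naive replicate 1. Of 14 coagulation and fibrinolysis genes, 7 lay lower without overlap, against 14.1% of all genes tested.

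Several inflammatory cytokine genes were low in first exposure skin, most of all in the 2 libraries with hair. No member of the cytokine, chemokine or leukocyte lists was called in either direction. Il1b, the inflammatory cytokine of myeloid cells, was at 26.5 and 77.1 CPM in naive skin and 2.06, 1.11 and 10.3 CPM after first exposure (log2 fold change -3.47, SE 1.33, adjusted p = 0.237). Cxcl2 and Cxcl1, which draw neutrophils, were at 7.19 and 15 against 0.0351, 0.223 and 0.733 CPM and 9.2 and 16.1 against 0.28, 0.112 and 7.51 CPM on the naive and first exposure sides. Il6 was at 3.59 and 7.83 CPM in naive skin and 0.175, 0.0558 and 1.55 CPM after first exposure, and Il10, the cytokine that damps inflammation, at 6.15 and 3.12 CPM in naive skin and 0.105, 0.0558 and 0.431 CPM after first exposure (adjusted p = 0.246). For each of these genes the groups were separate and first exposure replicate 3 held the most on its side. Of the 20 interleukin-1 and interleukin-6 family genes, 6 lay lower and 0 higher without overlap, against 14.1% and 21.2% of all genes tested. The list mean was 4.12 and 4.63 in naive skin and 3.43, 3.05 and 4.47 after first exposure, where replicate 3 exceeded naive replicate 1. The median log2 fold change of -0.50 became -0.26 without first exposure replicate 2. In the ticks 2x libraries Il1b stood at 19.1, 329 and 122 CPM.

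Among myeloid genes, 1 of 22 monocyte and macrophage genes lay lower and 0 higher without overlap, against 14.1% and 21.2% of all genes tested. The list mean was 5.33 and 4.71 in the naive against 4.67, 3.91 and 5.68 in the first exposure libraries. The median of -0.20 became 0.21 without first exposure replicate 2 and -0.73 without replicate 3, and 0.06 and -0.51 without naive replicate 1 or 2, so it had no stable direction. Cd14, the co-receptor for bacterial lipopolysaccharide and the only member without overlap, was at 51 and 41.3 CPM in naive skin and 6.5, 4.57 and 17 CPM after first exposure (adjusted p = 0.178). Lyz2, the lysozyme of myeloid cells, was at 376 and 225 CPM in naive skin and 264, 175 and 721 CPM after first exposure and overlapped. Alternatively activated macrophage genes, which respond to interleukin-4, had 4 of 11 lower without overlap (median -0.91). Mgl2, a lectin of dermal macrophages and dendritic cells, was at 130.5 and 83.2 CPM in naive skin and 20.0, 17.5 and 40.3 CPM after first exposure (adjusted p = 0.0879), and Il4ra, the interleukin-4 receptor chain, at 209.8 and 169.8 CPM in naive skin and 45.2, 31.5 and 115 CPM after first exposure (adjusted p = 0.387). The saliva immune library exceeded naive replicate 1 for both, at 154 and 332 CPM. Of the monocyte-attracting chemokines, Ccl7 was at 37 and 26 CPM in naive skin and 2.34, 0.446 and 20.0 CPM after first exposure and Ccl12 at 8.19 and 4.87 against 0.979, 0.167 and 2.98 CPM, each without overlap.

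Type 2 cytokines and basophils are known to be engaged by repeat tick bites in mice, and their defining transcripts were at low levels. Il4 was at 0.403 and 0.4 CPM in naive skin and 0.105, 0.223 and 0.259 CPM after first exposure, Il13 at 0.437 and 0.24 against 0, 0.167 and 0.129 CPM and Ifng at 0.0673 and 0 against 0, 0 and 0.0864 CPM, and none reached the minimum for testing. Mcpt8, a protease of basophils, had no reads in naive skin, which allows up to 0.101 and 0.24 CPM. After first exposure it was at 0.07, 0.0558 and 0.129 CPM, at or under the level of 3 reads, so a difference in Mcpt8 was not detectable at this depth. It was at 2.61 CPM in the saliva immune library. Of 16 mast cell genes, 1 lay higher and 1 lower without overlap, against 21.2% and 14.1% of all genes tested. Il31ra, a receptor chain for the itch cytokine interleukin-31, was the type 2 list member with an adjusted p below 0.1, at 21.1 and 41.3 CPM in naive skin and 4.91, 5.12 and 7.72 CPM after first exposure (adjusted p = 0.0833). Ccl24, an eotaxin that attracts eosinophils, was at 35.2 and 23.4 CPM in naive skin and 5.03, 6.18 and 16.3 CPM after first exposure (adjusted p = 0.105), and Ccl11, the other eotaxin of mouse skin, at 37.8 and 27.6 CPM in naive skin and 21.5, 15.3 and 49.5 CPM after first exposure with overlap.

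Lymphocyte and antigen presentation genes followed the individual library. The mean of 10 MHC class II genes, which present antigen to helper T cells, was 5.76 and 5.72 in naive skin and 4.85, 4.12 and 6.12 after first exposure, with replicate 3 of the bitten group highest of all 5 and its replicates 1 and 2 lowest. Cd74, the invariant chain, was at 581 and 535 CPM in naive skin and 242, 130.1 and 631 CPM after first exposure. Cd207, the langerin of Langerhans cells, was at 14.7 and 26.8 CPM in naive skin and 7.9, 6.07 and 33.5 CPM after first exposure with the same order, and Cd4, the coreceptor of helper T cells, at 1.01 and 1.6 CPM in naive skin and 0.664, 0.334 and 1.55 CPM after first exposure. Of 17 T cell genes 1 lay higher and 1 lower without overlap, against 21.2% and 14.1% of all genes tested. Cd83, a marker of mature dendritic cells, was an exception, at 25.8 and 30.8 CPM in naive skin and 2.31, 3.84 and 6.04 CPM after first exposure (log2 fold change -2.59, SE 0.40, adjusted p = 0.0593), with all 3 first exposure libraries low. Interferon-stimulated genes had 15 of 32 lower without overlap and a median of -0.54, which became -0.28 without first exposure replicate 2. Gbp2, a GTPase induced by interferons, was at 39.8 and 45.3 CPM in naive skin and 20.2, 11 and 30.1 CPM after first exposure (adjusted p = 0.144). C3, the central complement component, was at 1306 and 1196 CPM in naive skin and 366, 186 and 822 CPM after first exposure (adjusted p = 0.156).

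Ribosomal protein genes, whose products assemble the small and large subunits, stood higher after first exposure. Rps12, of the small subunit (chromosome 10, 23785183 to 23787383), was at 44 and 35 CPM in naive skin and 102, 108 and 105 CPM after first exposure, with means of 39.5 ± 6.4 CPM in naive skin (SD, n = 2) and 105 ± 3.29 CPM after first exposure (SD, n = 3) (log2 fold change 1.40, SE 0.14, adjusted p = 0.0205). The libraries did not overlap. Dropping naive replicate 1 or 2 moved the adjusted p of Rps12 to 0.0703 and 0.271. Fits that dropped first exposure replicate 1 or 2 gave 0.0853 and 0.109, and a fit of these 5 libraries alone gave 0.273. All 32 small subunit genes lay higher, 27 without overlap (median 0.67, against 58.1% of all genes tested that lay higher), as did all 46 large subunit genes, 45 without overlap (median 0.69). Rpl10a, of the large subunit, was at 21.7 and 22.1 CPM in naive skin and 54.5, 66.5 and 41.1 CPM after first exposure (adjusted p = 0.0593) and Rps16, of the small subunit, at 40.4 and 29.7 CPM in naive skin and 66.2, 67.7 and 71.6 CPM after first exposure (adjusted p = 0.0772). An adjusted p below 0.1 was reached by 7 small and 8 large subunit genes. Naive replicate 2 was the lowest of the 5 libraries for Rps12, Rps16 and both list means, which were 7.20 and 6.85 in naive and 7.70, 7.86 and 7.57 in first exposure skin for the small subunit.

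Processed pseudogenes, reverse-transcribed copies of these mRNAs that share long stretches with them, lay in the same direction. Of 68 tested of 133 in the table, 57 lay higher without overlap (median 0.67). Reads that fit both a gene and its copies may be divided between them, and the labels do not say how the counting treated such reads. Rps12-ps10 was at 1.4 and 0.546 CPM in naive skin and 3.97, 4.66 and 6.28 CPM after first exposure (adjusted p = 0.0593), and Rps13-ps1 at 1.99 and 1.79 CPM in naive skin and 7.61, 6.7 and 10.8 CPM after first exposure (adjusted p = 0.076). The pseudogenes followed the title series over all 12 libraries: in 39 of the 68 the 4 libraries of the first exposure series, saliva immune included, lay above all 8 of the other series. That separation held for 474 of all genes tested (2.89%) as higher and 185 (1.13%) as lower. Among the intact genes it held for 3 of the small and 4 of the large subunit, Rps12 and Rpl10a among them. In a separation by bite, both naive libraries lay below all 10 bitten ones in 19 of the 32 small and 18 of the 46 large subunit genes and in 8 of the 68 pseudogenes. Over all genes tested they lay below in 629 (3.84%) and above in 539 (3.29%), with the same 2 naive libraries in each count. The difference between genes and pseudogenes in these counts was not tested. Rps12 was at 128 CPM in the saliva immune library, and at 62, 66.8 and 54.2 CPM in ticks 2x and 64.8, 57.7 and 59.6 CPM in ticks 3x.

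Bc1 and Xist, both noncoding RNAs, also separated by title series. Bc1, a small cytoplasmic RNA known from neurons and transcribed by RNA polymerase III, was at 22.3 and 10.9 CPM in naive skin and 76.4, 105 and 93.8 CPM after first exposure (log2 fold change 2.47, SE 0.31, adjusted p = 0.0516) and at 105 CPM in the saliva immune library. The ticks 2x and 3x libraries had 40.2, 25.1 and 30.9 and 32, 22.9 and 23.8 CPM. Xist, quoted above for first exposure and naive skin, was at 1407 CPM in the saliva immune library and at 1033, 878 and 659 CPM in ticks 2x and 969.7, 1037 and 811 CPM in ticks 3x, and so was higher in the first exposure series without overlap (adjusted p = 0.149 for first exposure against naive). Tmem265, a transmembrane protein gene, was at 8.5 and 8.39 CPM in naive skin and 17.4, 19.7 and 19 CPM after first exposure (adjusted p = 0.0516).

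**Figure D4:**
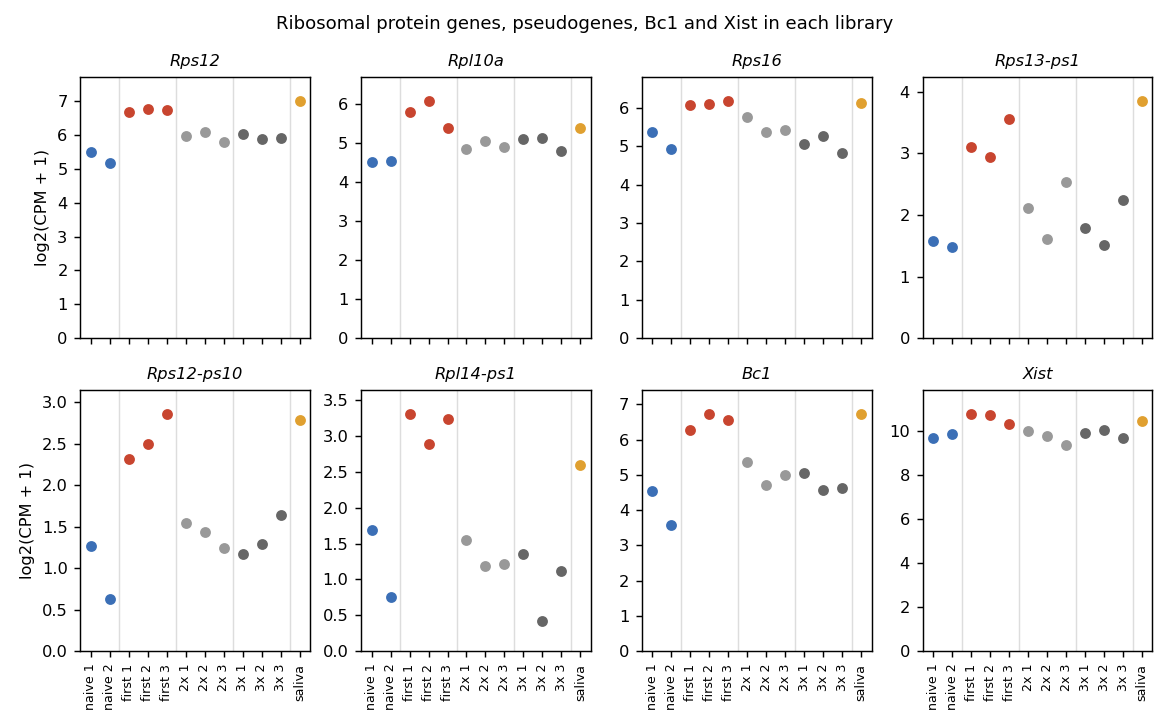
Level in log2(CPM + 1) of 3 ribosomal protein genes, 3 ribosomal protein pseudogenes, Bc1 and Xist in each of the 12 libraries: naive in blue, first exposure in red, ticks 2x and 3x in greys and saliva immune in yellow. The saliva immune library, which shares the title series of first exposure, lies with the red points or closer to them than to the blue ones.

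Cell division genes lay higher in first exposure skin, and within each group their mean was higher in libraries rich in hair. All 31 were above 0, 18 without overlap (median 0.86, and 0.56 without naive replicate 2). Their mean level was 4.33 and 3.78 in naive skin and 5.13, 5.20 and 4.33 after first exposure. The 2 high values after first exposure belong to libraries rich in hair. Naive replicate 1, also rich in hair, was level with first exposure replicate 3, which was poor in it. A fit with the hair mean as covariate gave a median of 0.55. Birc5, a survival and spindle protein of dividing cells, was at 9.6 and 8.44 CPM in naive skin and 25.6, 27.7 and 13 CPM after first exposure (adjusted p = 0.155), and Mki67, the proliferation antigen, at 124 and 91.1 CPM in naive skin and 269, 266 and 122 CPM after first exposure, where first exposure replicate 3 lay between the naive libraries. Pigment genes were also higher in the hair-rich libraries of each group. Dct, an enzyme of melanin synthesis, was at 62.7 and 16.3 CPM in naive skin and 448, 787 and 5.26 CPM after first exposure, and the melanocyte median of 2.00 became 0.64 with the covariate and ranged over 0.82 to 3.88 when 1 library was left out.

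The epidermis showed scattered differences. Of 34 cornified envelope genes, which build the dead outer layer, 6 lay higher and 0 lower without overlap. Over all genes tested the shares were 21.2% and 14.1%, so the higher count did not stand out. The list median of 0.12 ranged over -0.35 to 0.47 when 1 library was left out. Sprr2a1, a small proline-rich envelope protein with near-identical copies, was at 2.65 and 0.999 CPM in naive skin and 11.1, 17.7 and 7.64 CPM after first exposure (adjusted p = 0.622), and Ivl, involucrin, at 86.3 and 74.9 CPM in naive skin and 157, 171 and 117 CPM after first exposure (adjusted p = 0.241). Krt16, a keratin of wounded epidermis, was at 13.1 and 12.2 CPM in naive skin and 50.3, 45.6 and 28.4 CPM after first exposure (adjusted p = 0.621). Its standard error was 1.59 on the log2 scale and the ticks 2x and 3x libraries, which enter the fit, were at 42.1, 203 and 7.41 and 289, 113 and 4.95 CPM. Krt6a, another wound keratin that hair follicles also make, was at 125 and 107 CPM in naive skin and 231, 223 and 37.9 CPM after first exposure and overlapped. Krt79, a keratin of the sebaceous duct and follicle opening, was at 219.5 and 317 CPM in naive skin and 99.1, 82 and 140.1 CPM after first exposure (adjusted p = 0.0982). Of 11 basal genes none was free of overlap.

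Genes of the dermis and deeper layers had no single direction. Prg4, a lubricating proteoglycan, was at 2.65 and 2.56 CPM in naive skin and 13.3, 5.74 and 82.4 CPM after first exposure (log2 fold change 2.47, SE 1.18, adjusted p = 0.321), and Cthrc1, a collagen-associated protein of healing wounds and activated fibroblasts, at 2.15 and 0.879 CPM in naive skin and 6.96, 6.24 and 39.1 CPM after first exposure (log2 fold change 2.44, SE 0.82, adjusted p = 0.19). Both were low in the 2 naive libraries, and both were by far highest in first exposure replicate 3. Saa3, an acute phase protein made in inflamed tissue, was at 0.336 and 0.16 CPM in naive skin and 3.6, 2.06 and 11.4 CPM after first exposure (adjusted p = 0.39). Dcn, the proteoglycan decorin of dermal fibroblasts, was at 1483 and 1572 CPM in naive skin and 661, 427 and 1228 CPM after first exposure (adjusted p = 0.172), and was the only 1 of 24 fibroblast genes without overlap. Skeletal muscle genes had 4 of 23 lower without overlap, against 14.1% of all genes tested. Their list means were 9.37 and 8.80 in naive and 8.44, 8.62 and 9.23 in first exposure libraries. Of 25 Hox and limb identity genes, which record body position, 8 lay lower and 1 higher without overlap (14.1% and 21.2% of all genes tested). Hoxa10 was at 3.16 and 1.76 CPM in naive skin and 0.699, 0.78 and 0.561 CPM after first exposure and Hoxb4 at 11 and 11.7 CPM in naive skin and 24.3, 26.4 and 12.7 CPM after first exposure. Whether biopsy position differed between the groups was not tested.

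Among the genes with the smallest p-values that were not yet described, all were lower after first exposure and missed the threshold. Enpep, the aminopeptidase that trims angiotensin II, was at 71.6 and 75.6 CPM in naive skin and 21.5, 19.8 and 27.5 CPM after first exposure (adjusted p = 0.0516). Pcdh18, a protocadherin of cell adhesion, was at 24 and 23.2 CPM in naive skin and 11.3, 10.6 and 10.9 CPM after first exposure (adjusted p = 0.0516). The libraries of a group lay close together for both. Gulp1, an adaptor for the engulfment of dying cells, was at 23.4 and 30.3 CPM in naive skin and 9.51, 6.07 and 8.67 CPM after first exposure (adjusted p = 0.0516). B3galt2, a galactosyltransferase, was at 46.2 and 74.6 CPM in naive skin and 18.9, 8.36 and 10.4 CPM after first exposure, Nat8l, which makes N-acetylaspartate in neurons and fat, at 35.3 and 55.9 against 14.7, 7.86 and 11 CPM, and Rasd1, a small GTPase induced by glucocorticoids, at 20.9 and 46.3 against 3.22, 2.12 and 4.74 CPM (adjusted p = 0.0541, 0.0541 and 0.0541). Every first exposure library was below both naive libraries for these 6 genes, and so was every other bitten library (539 of all genes tested, 3.29%). Gulp1, B3galt2, Nat8l and Rasd1 also separated by title series. All libraries of the first exposure series, saliva immune included, lay below all those of the other. That held for 185 of all genes tested (1.13%), among them Ehhadh, Apold1, Cd83, Cyr61, Fosb, Ghr, Ccl21a and Krt79 described above.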

How the data were processed

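Skin RNA of 12 mouse libraries was sequenced. Per the submitters' processing notes, STAR and Partek 8.0.19 were used with GRCm38.p6; the sources used here do not give annotation or counting program. The authors deposited CPM for 25070 gene symbols with 0.0001 added to every cell, shown as 0 in the text where nothing else was counted. Of the symbols, 25 had become dates and 2 occurred more than once. As the deposited CPM are not counts, depth was estimated from the step of low values (0.01 to 3 CPM), with 73.7% to 79.3% of values on whole multiples within 0.02 reads in the 5 libraries. That is too few for count tests. The 3-read floor covers counting error only.

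limma 3.58.1 in R 4.3.3 was run on log2(CPM + 1) with a variance trend. The fit held 4 groups, naive (n = 2), first exposure (n = 3), ticks 2x (n = 3) and ticks 3x (n = 3), with 7 residual degrees of freedom, and genes entered if 2 or more of the 5 naive and first exposure libraries had 1 CPM or more. Adjusted p-values are Benjamini-Hochberg over all genes tested. Fold changes on this scale understate changes of low genes. The members, the 52 gene lists (864 of 907 listed genes in the table; 1 list is of pseudogenes, taken by symbol) and the tests were chosen with earlier results of these data known; 4 metabolic lists were added after the values were seen. Lists have no test: no-overlap counts and medians are descriptions. Named genes were called genes, the 12 largest rises and falls without overlap and the 12 smallest p-values (mean of at least 5 CPM, named genes only), up to 4 members of each list, or its 2 most abundant, and a fixed set; a selection of these is printed, made with the values known, and Egr2, Zfp36, Dusp1, Btg2, Nr3c1, Adipoq, Pparg and Eif2s3y were added after the values were seen. Coordinates and promoters are from RefSeq (GRCm38.p6), where 22654 symbols (90.4%) matched. Alternatives were other pseudocounts, filters, scalings and variance settings, a hair covariate, a fit of the 5 libraries alone and leaving out each library. The fit was tested on simulated data. Python 3.11.15 with pandas 2.3.3 made the tables.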

Additional observations from a re-analysis of the deposited data

How the results depend on the processing

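The calls were few and the counts moved with the settings. Against 1 gene higher and 1 lower, pseudocounts of 0.5 and 0.1 each gave 4 and 5, robust variance moderation 4 and 5, no filter on low values 3 and 6, a minimum of 5 CPM 3 and 5, and a fit of the 5 libraries alone 0 and 2, in that order. An adjusted p below 0.1, added after the values were seen, gave 128 and 153. Array weights gave 4475 and 1943, from an estimate of the weights that stopped before it converged. Leaving out 1 library gave 0 to 355 genes higher and 0 to 346 lower, and 3524 to 7073 and 2426 to 4889 genes without overlap against 3478 and 2303, where fewer libraries make separation easier. Without naive replicate 1 limma called 0 genes, with 2275 at an unadjusted p below 0.05, and the same number without naive replicate 2 (with 1172) or first exposure replicate 2 (with 1592). A lone naive library is assumed to vary like the other groups. For the other counts the cause was not tested. Median-of-ratios scaling, quantile normalization and the hair covariate kept 1 and 1. Of 2963 fold changes of named genes under alternatives, 2728 kept their side of the threshold, 226 newly passed it in the same direction and 9, all of Oxtr or Rps12, no longer did. The new passes were not spread evenly. Outside array weights and the fit without first exposure replicate 3, no alternative fit called more than 6 genes in either direction. List medians moved by less than 1 SD of the list means of libraries within groups in 734 of 793 cases. That SD is wide where libraries of a group differ, so the count does not show that medians were stable. The hair shaft median, for example, went from 2.59 to -1.10 without naive replicate 2. No paired analysis was possible because the labels carry no replicate numbers. Genes under the level of 3 reads, 0.101 to 0.24 CPM, cannot be compared.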
